A study of Mus musculus with 11 samples.

Results

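The 9 genes described here belong to the cyclic AMP pathway of mouse T cells. They are the phosphodiesterase genes Pde3b, Pde4a, Pde4b, Pde4d and Pde7a, the adenylyl cyclase gene Adcy7, the protein kinase A gene Prkaca and the transcription factor genes Creb1 and Crem. They were taken by symbol from the 21957 genes listed for each library, and all 9 were found. The cells were primed OT1 cells, CD8 T cells with a transgenic receptor for an ovalbumin peptide, which the series title calls CD8 memory T cells. The unstimulated group was left resting. The stimulated group was cultured with CD3/CD28 beads for 2 h, and both groups then received cycloheximide, which stops elongating ribosomes, for 10 min. Every cell in the comparison therefore carried the same receptor and had met cycloheximide. There were 3 RNA libraries for each group. Ribosome footprints, the stretches of mRNA that ribosomes protect from nuclease, were counted in 3 libraries of resting and 2 of stimulated cells. Stimulated footprint replicate 1 was not analysed here. The labels give no age or sex, do not say how the cells were primed, and do not say whether replicates came from separate mice or cultures, so the p-values measure the spread between these libraries, which may be technical.

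Cyclic AMP is made by adenylyl cyclases, which are switched on by receptors coupled to the G protein Gs and held back by Gi. It activates protein kinase A, whose catalytic subunits phosphorylate targets that include the transcription factor CREB, and it also opens Epac exchange factors. Phosphodiesterases end the signal by hydrolysing cyclic AMP, and in T cells a high cyclic AMP level is known to restrain signalling from the antigen receptor.

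RNA libraries held 21658263 to 39346699 counts and footprint libraries 11136 to 23641. The 9 genes took 18844 to 77205 counts of an RNA library and 7 to 26 of a footprint library. Levels are given as CPM, counts scaled to library size, with TMM factors unless stated otherwise. The CD8 markers Cd8a and Cd8b1 summed to 829 to 1003 CPM in unstimulated and 665 to 847 CPM in stimulated RNA, without scaling. A list of 8 general T cell genes, such as Cd3e and Lck, was lower without overlap, at 2619 to 3083 CPM in unstimulated and 1673 to 2116 CPM in stimulated RNA, and its part in the results below was not tested. Lists for B, NK and CD4 or regulatory T cells and for erythroid cells and platelets summed to at most 8.37 CPM in any RNA library, and the myeloid list to at most 26.2 CPM. In the footprints these lists of other cell types gave 1 count, for a myeloid gene. RNA libraries also differed in a background of 1538 olfactory, vomeronasal and defensin genes, which T cells are not known to use. It came to 300, 1882 and 406 CPM in unstimulated replicates 1 to 3 and 2753, 2025 and 685 CPM in stimulated replicates 1 to 3. The 4 genes Gm10800, Gm10801, Gm20594 and Lars2 alone took 4.09 to 14.9% of the counts of unstimulated and 12.8 to 25.0% of those of stimulated RNA libraries. Unstimulated replicate 2 and stimulated replicates 1 and 2 therefore stand apart in background, and RNA results are also given without these 3 libraries.

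In RNA, 5 of the 9 genes fell after 2 h of stimulation, none rose and 4 did not pass the test. Adcy7, Pde4d, Pde4b, Pde3b and Creb1 fell, by log2 changes of -0.77 to -1.32, while Pde7a, Prkaca, Crem and Pde4a did not pass. A gene passed at an adjusted p of 0.05, from edgeR's two-sided quasi-likelihood F test with Benjamini-Hochberg adjustment over the 18886 genes tested. Of those genes 8.25% passed, 4.67% in the lower and 3.58% in the higher direction. The median log2 change of the 9 genes, stimulated minus unstimulated, was -0.77 and that of all genes tested 0.39. The median over all genes shifted to 0.19 with RLE size factors and 0.22 with library totals, and the higher share of the genes that passed moved from 43.4% to 19.7% and 19.3%. Genes of at least 10 CPM, the level of all members but Pde4a, had a lower median of -0.09 in the same fit. Among those 8705 genes 16.7% passed, 9.84% lower and 6.86% higher, against 5 of the 8 members at that level, all lower. The 9 genes were chosen with earlier results of these data known, so these shares describe them and test nothing. With TMM factors made without the 4 abundant genes named above, 6 of the 9 passed, all lower, with Pde7a as the sixth. In that fit 1666 of 18886 genes passed, 1147 lower and 519 higher, against 882 lower and 677 higher with the usual TMM factors. Without the 3 libraries of high background, 7 of the 9 genes fell, the 5 above together with Pde7a and Prkaca, in a comparison of 2 unstimulated libraries with 1 stimulated library whose spread was taken from the unstimulated pair. In that fit 40.7% of 18020 genes passed, 30.0% lower and 10.8% higher. In whole-culture RNA, fewer cells with a transcript and less transcript per cell cannot be told apart.

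**Figure D1:**
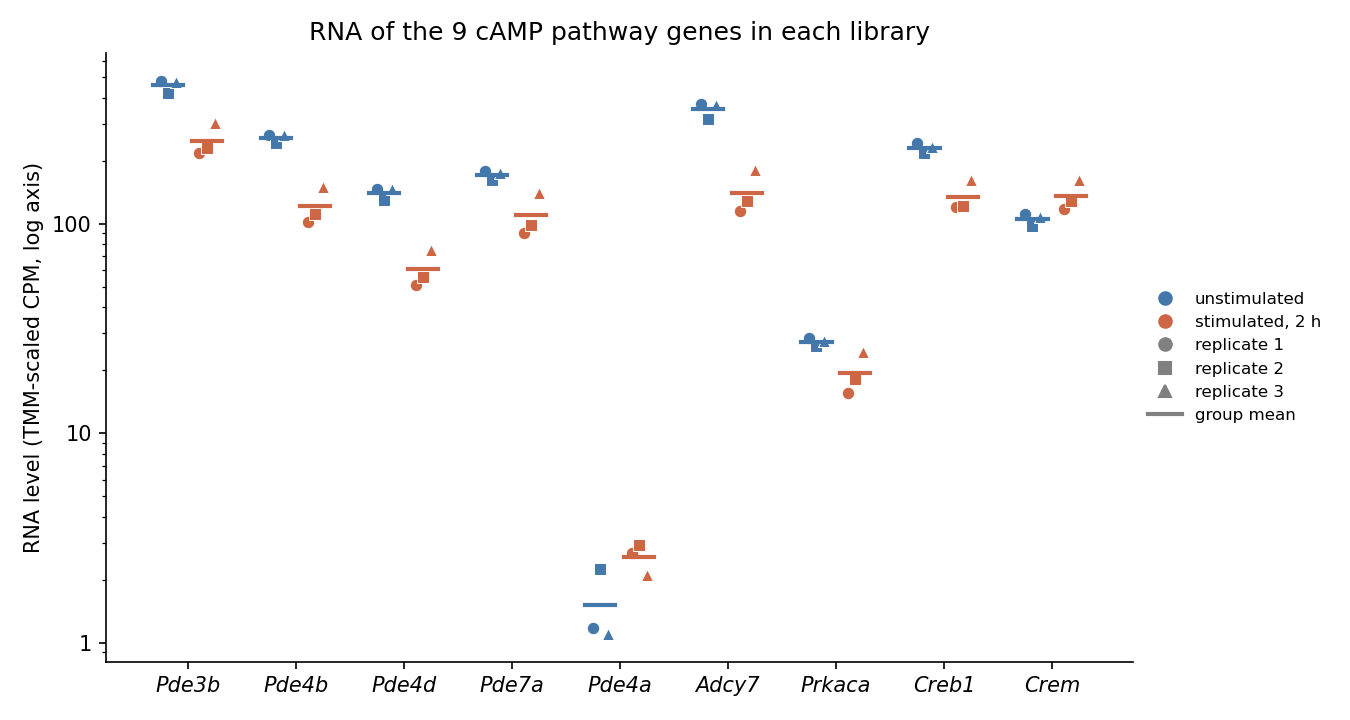
RNA level of each gene in every library, as TMM-scaled CPM on a log axis, with 3 unstimulated and 3 stimulated points per gene. The stimulated points of Adcy7, Pde4d, Pde4b, Pde3b, Creb1, Pde7a and Prkaca lie below all unstimulated points, those of Crem lie above, and those of Pde4a overlap.

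Stretches of DNA just upstream of transcript starts are shown for the 3 genes that passed under every alternative. They come from RefSeq on build GRCm38.p6, run 5′ to 3′ on the plus strand and end at the base before the start. Capitals mark CGTCA, which with its reverse complement TGACG is the short form of the element that CREB family proteins bind.

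Pde4b (chr4:102421305-102421554): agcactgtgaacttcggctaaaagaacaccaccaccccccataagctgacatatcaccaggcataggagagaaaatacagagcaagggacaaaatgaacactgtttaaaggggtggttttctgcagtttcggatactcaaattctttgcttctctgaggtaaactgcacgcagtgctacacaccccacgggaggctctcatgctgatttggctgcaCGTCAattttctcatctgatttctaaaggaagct
Adcy7 (chr8:88282742-88282991): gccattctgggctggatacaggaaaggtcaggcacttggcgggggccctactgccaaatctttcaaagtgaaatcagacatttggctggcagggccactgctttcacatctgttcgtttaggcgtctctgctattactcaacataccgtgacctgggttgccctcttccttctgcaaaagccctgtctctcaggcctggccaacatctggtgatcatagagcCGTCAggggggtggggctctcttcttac
Pde4d (chr13:108653927-108654176): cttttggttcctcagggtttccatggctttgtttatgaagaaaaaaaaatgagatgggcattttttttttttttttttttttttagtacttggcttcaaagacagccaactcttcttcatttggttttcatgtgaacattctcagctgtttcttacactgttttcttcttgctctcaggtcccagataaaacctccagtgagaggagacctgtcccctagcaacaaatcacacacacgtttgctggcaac

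The Pde4b and Adcy7 stretches precede starts that lie inside the annotated genes, and the Pde4d stretch precedes the first base of its gene. CGTCA began 34 bases before the Pde4b start and 28 bases before the Adcy7 start, and the single Pde4d window held no match. The 3 other Pde4b windows and the 2 other Adcy7 windows searched, at other starts of these genes, held none either. For Pde4b and Adcy7 the stretch shown is thus the one with a match. The window of Creb1, which also fell, is not shown and held no match. The search used both strands of windows of 300 bases, 250 before to 50 after each start. The table held 14 such windows for 6 of the genes, Creb1, Pde4a, Pde4b, Pde4d, Prkaca and Adcy7. The short element was in 4 of the 14 windows, 1 each for Pde4b, Prkaca, Adcy7 and Pde4a, against 20.8% of 32851 windows of all genes. The full palindrome TGACGTCA, which holds both short forms, was in 0 of the 14 windows and in 1.79% of all windows. A match describes letters and not a bound site.

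Adcy7 encodes a membrane adenylyl cyclase that is prominent in blood cells and makes cyclic AMP. Its gene lies on chromosome 8 (build GRCm38, 88272190 to 88329965). The RNA level was 371, 317 and 369 CPM in unstimulated replicates 1 to 3 and 115, 128 and 180 CPM in stimulated replicates 1 to 3. Every stimulated library was below every unstimulated library. The means were 352 ± 30.4 and 141 ± 34.3 CPM (SD, n = 3 each), a log2 change of -1.32 ± 0.21 (SE), with an edgeR adjusted p of 0.00379. This log2 change stood at percentile 0.318 of all genes tested and 0.528 of those of at least 10 CPM, the lowest of the 9 genes. It passed under all 17 alternatives tried, with log2 changes from -1.67 to -1.11, and was -1.49 without the 3 libraries of high background. The last 72 bases of the Adcy7 model overlap Brd7, the only protein-coding model to overlap any of the 9 genes. Brd7 was at 65.3 ± 1.98 and 66.9 ± 13.6 CPM (SD, n = 3 each; edgeR adjusted p = 0.891).

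Pde4d and Pde4b encode enzymes of the PDE4 family, which is specific for cyclic AMP and is the target of rolipram, and Pde4b is a family member widely found in leukocytes. Pde4d, on chromosome 13 (108654177 to 109955969), was at 146, 130 and 146 CPM in unstimulated and 50.9, 55.9 and 74.6 CPM in stimulated replicates 1 to 3. Its mean went from 141 ± 9.63 to 60.5 ± 12.5 CPM (SD, n = 3 each), a log2 change of -1.22 ± 0.19 (SE) with an edgeR adjusted p of 0.00326. The groups did not overlap, and the stimulated mean was 2.32-fold lower. Pde4b, on chromosome 4 (102087332 to 102607275), was at 266, 243 and 264 CPM in unstimulated and 102, 112 and 150 CPM in stimulated replicates 1 to 3. Its mean went from 257 ± 12.5 to 121 ± 25.3 CPM (SD, n = 3 each), a log2 change of -1.09 ± 0.20 (SE) with an edgeR adjusted p of 0.00655. The stimulated libraries were again all below the unstimulated ones, by 2.12-fold in the fit. Both genes passed under all 17 alternatives, Pde4d with log2 changes from -1.54 to -1.04 and Pde4b from -1.39 to -0.93.

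Pde3b encodes a phosphodiesterase that cyclic GMP inhibits, best known for its part in insulin action in fat cells. On chromosome 7 (114415222 to 114537938), it was at 482, 421 and 474 CPM in unstimulated and 218, 229 and 301 CPM in stimulated replicates 1 to 3. The groups did not overlap, with means of 459 ± 33.0 and 249 ± 45.3 CPM (SD, n = 3 each). The log2 change was -0.88 ± 0.20 (SE), 1.84-fold lower, with an edgeR adjusted p of 0.0196. The call was lost when any 1 of 4 libraries was left out. The adjusted p was then 0.0709 without unstimulated replicate 1, 0.122 without unstimulated replicate 3, 0.0831 without stimulated replicate 1 and 0.133 without stimulated replicate 2. The log2 change stayed negative in all 17 alternatives, from -1.20 to -0.71.

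Pde7a encodes a phosphodiesterase specific for cyclic AMP that is not blocked by rolipram and is found in T cells. On chromosome 3 (19223108 to 19311322), it was at 178, 161 and 175 CPM in unstimulated and 89.9, 99.1 and 140 CPM in stimulated replicates 1 to 3. These groups did not overlap, yet the gene did not pass the test, with a log2 change of -0.65 ± 0.20 (SE) and an edgeR adjusted p of 0.0775. It passed under 11 of 17 alternatives, among them RLE size factors at 0.0469, limma voom at 0.0172 and DESeq2 at 9.1e-04 (all adjusted p). These 3 called 1698, 3387 and 2960 of 18886 genes, against 1559 in the main fit. Of the 6 fits without 1 library, Pde7a passed in 2. Without the 3 libraries of high background its log2 change was -0.78, with an edgeR adjusted p of 0.00108. Pde4a, the third PDE4 gene here, was hardly detected, with 46 to 77 counts in an RNA library. On chromosome 9 (21165700 to 21213248), it was at 1.18, 2.25 and 1.10 CPM in unstimulated and 2.69, 2.92 and 2.10 CPM in stimulated replicates 1 to 3. The groups overlapped, and the log2 change of 0.77 ± 0.47 (SE) did not pass (edgeR adjusted p = 0.332). At this level the background CPM given above, which was also higher in most stimulated libraries, moved the same way, and its part in the Pde4a value was not tested.

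The 5 phosphodiesterases together summed to 1072, 957 and 1060 CPM in unstimulated and 463, 499 and 668 CPM in stimulated replicates 1 to 3. This is 1030 ± 63.3 against 543 ± 109 CPM (SD, n = 3 each), 1.90-fold lower as a description without a test. Pde3b gave the most counts in both groups, 44.5% ± 0.486 of the counts of the 5 genes in unstimulated and 46.0% ± 0.931 in stimulated libraries (SD, n = 3 each). The share of Pde4b went from 25.0% ± 0.339 to 22.3% ± 0.214, that of Pde4d from 13.6% ± 0.142 to 11.1% ± 0.113, and that of Pde7a from 16.7% ± 0.169 to 20.1% ± 0.792. Shares of counts depend on coding length as well as on transcript number, so they do not rank the genes by level.

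Prkaca encodes the alpha catalytic subunit of protein kinase A. On chromosome 8 (83972978 to 83996444), it was at 28.5, 26.2 and 27.5 CPM in unstimulated and 15.5, 18.1 and 24.5 CPM in stimulated replicates 1 to 3. The groups did not overlap, but stimulated replicate 3 came close to the unstimulated range. The log2 change of -0.50 ± 0.17 (SE) did not pass (edgeR adjusted p = 0.107). It was negative in all 17 alternatives, from -0.80 to -0.33, and passed in 10, among them 2 of the 6 fits without 1 library. Without the 3 libraries of high background it was -0.64, with an edgeR adjusted p of 0.00282.

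Creb1 and Crem encode relatives that bind the same DNA element. Creb1 mostly activates, whereas Crem also gives short repressor forms, among them ICER from an internal promoter, and the deposited counts per gene do not separate these forms. Creb1, on chromosome 1 (64532794 to 64604548), was at 242, 216 and 231 CPM in unstimulated and 121, 122 and 162 CPM in stimulated replicates 1 to 3. Its groups did not overlap, with means of 230 ± 12.9 and 135 ± 23.6 CPM (SD, n = 3 each). The log2 change was -0.77 ± 0.19 (SE), 1.71-fold lower, with an edgeR adjusted p of 0.0282. Creb1 lost its call without the same 4 libraries as Pde3b, at an adjusted p of 0.125 and 0.168 without unstimulated replicates 1 and 3, and 0.136 and 0.204 without stimulated replicates 1 and 2. Crem was at 112, 97.8 and 108 CPM in unstimulated and 117, 128 and 161 CPM in stimulated replicates 1 to 3. It was the only gene of the 9 whose stimulated libraries were all above the unstimulated ones, and its log2 change of 0.36 ± 0.18 (SE) did not pass (edgeR adjusted p = 0.286). That change stood at percentile 49.0 of all genes tested, near the median of 0.39, and at percentile 84.6 of those of at least 10 CPM. Among genes of at least 10 CPM, whose median log2 change was 0.0043 in a fit of their own, Crem changed by 0.46 with an edgeR adjusted p of 3.2e-06; in that fit 72.9% of 8734 genes passed, 36.1% lower and 36.8% higher. It passed in 3 of 17 alternatives, and its log2 change was 0.11 without the 3 libraries of high background.

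Non-overlap by itself was common in these libraries. It held for 8 of the 9 genes, 7 lower and 1 higher, and for 29.0% of the 18886 genes tested, 13.6% lower and 15.4% higher. Stimulated replicate 3 was the stimulated library with the highest level for 8 of the 9 genes, all but Pde4a. Unstimulated replicate 2 was the unstimulated library with the lowest level for the same 8. The list of general T cell genes, without scaling, was likewise highest in stimulated replicate 3 (2116 CPM) and lowest in unstimulated replicate 2 (2619 CPM). The share of all genes with this order was not computed, so the order does not set the 9 genes apart.

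**Figure D2:**
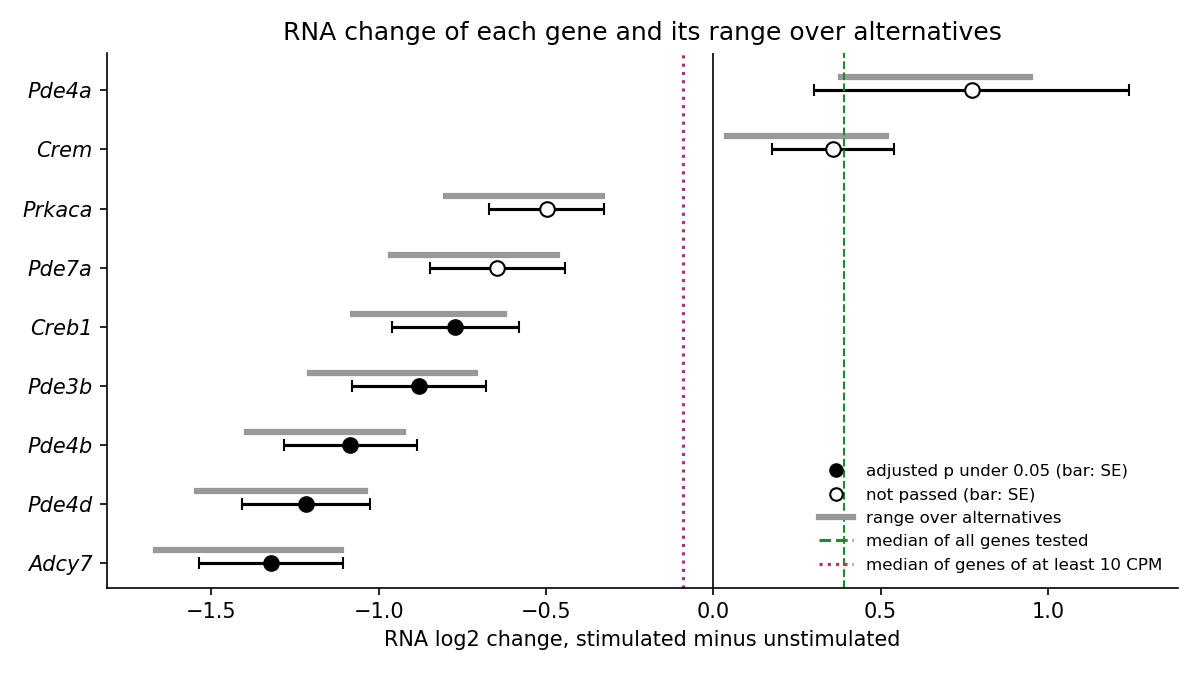
RNA log2 change of each gene, stimulated minus unstimulated, as a point (filled where it passed) with its SE, beside a grey bar for the range over the alternatives tried and lines at the median of all genes tested (dashed) and of those of at least 10 CPM (dotted). Adcy7, Pde4d and Pde4b stay below -0.9 throughout, and the range of Crem, 0.04 to 0.52, lies above 0.

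Ratios of 2 genes counted in the same library do not depend on scaling, and the 8 taken here did not overlap between the groups. Crem counts per Creb1 count were 0.461, 0.452 and 0.465 in unstimulated and 0.971, 1.05 and 0.994 in stimulated replicates 1 to 3. The ratio thus went from 0.459 ± 0.0069 to 1.01 ± 0.0433 (SD, n = 3 each), 2.19-fold higher, or 1.13 on the log2 scale. Adcy7 counts per Prkaca count were 13.0, 12.1 and 13.4 in unstimulated and 7.38, 7.09 and 7.33 in stimulated libraries, a log2 change of -0.82. Among the phosphodiesterases, Pde4b and Pde4d kept the closest ratio of the 6 pairs, 1.82, 1.88 and 1.80 against 2.01, 2.00 and 2.01, a log2 change of 0.13. Pde7a shifted most against Pde4d, from 1.22, 1.25 and 1.20 to 1.76, 1.77 and 1.87, a log2 change of 0.56. Pde3b per Pde4d changed by 0.34, Pde7a per Pde4b by 0.43, Pde7a per Pde3b by 0.22 and Pde3b per Pde4b by 0.21 on the log2 scale. These ratios show unequal change and not which gene of a pair moved. The 8 ratios were chosen after their counts were seen. None overlapped between the groups, and each gave a two-sided exact permutation p of 0.10 (0.10 after Benjamini-Hochberg adjustment over 8), the smallest that 3 against 3 libraries allow. The share of non-overlapping ratios among other gene pairs was not computed, so non-overlap does not set these pairs apart.

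**Figure D3:**
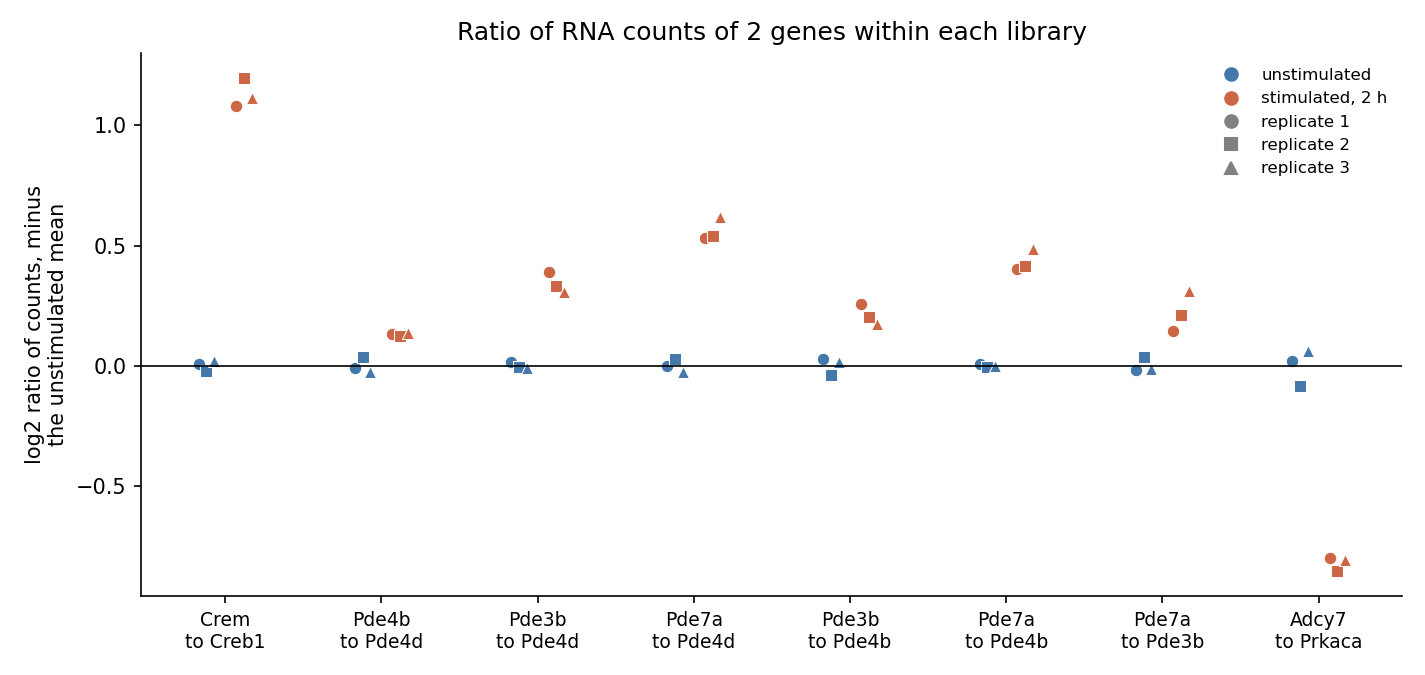
Log2 ratio of the RNA counts of 2 genes within each library, minus the mean of the unstimulated libraries, for 8 pairs. Crem to Creb1 moves most, by 1.13, and Pde4b to Pde4d least, by 0.13, with no overlap of the 3 stimulated and 3 unstimulated libraries in any pair.

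The genes nearest in pattern to Adcy7 and Pde4d were found as the smallest root mean square difference of centred log2 CPM over the 6 RNA libraries, among 8705 genes of at least 10 CPM. For Adcy7 these included Ifngr1 at 0.0333 and Tnfaip8l2 at 0.0340. For Pde4d they were Rab19 at 0.0167, Rasgrp2 at 0.0247 and Sorl1 at 0.0282. These 5 genes had log2 changes between -1.38 and -1.20. Values close to those of Adcy7 and Pde4d follow from the choice by similarity over the same libraries.

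The rest of the pathway was described through 10 lists of 90 genes, 89 of which were tested in RNA. Of these 10 rose, 3 fell and 76 did not pass, 14.6% passing against 8.25% of all genes. The genes that rose were receptors, CREB target genes and 1 anchoring protein. The lists were chosen with earlier results of these data known. Their shares beside those of all genes, here and below, are therefore descriptions and not tests. Among the 42 list genes of at least 10 CPM the median log2 change was -0.08, against -0.09 for all 8705 such genes and -0.83 for the 8 of the 9 genes at that level.

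**Figure D4:**
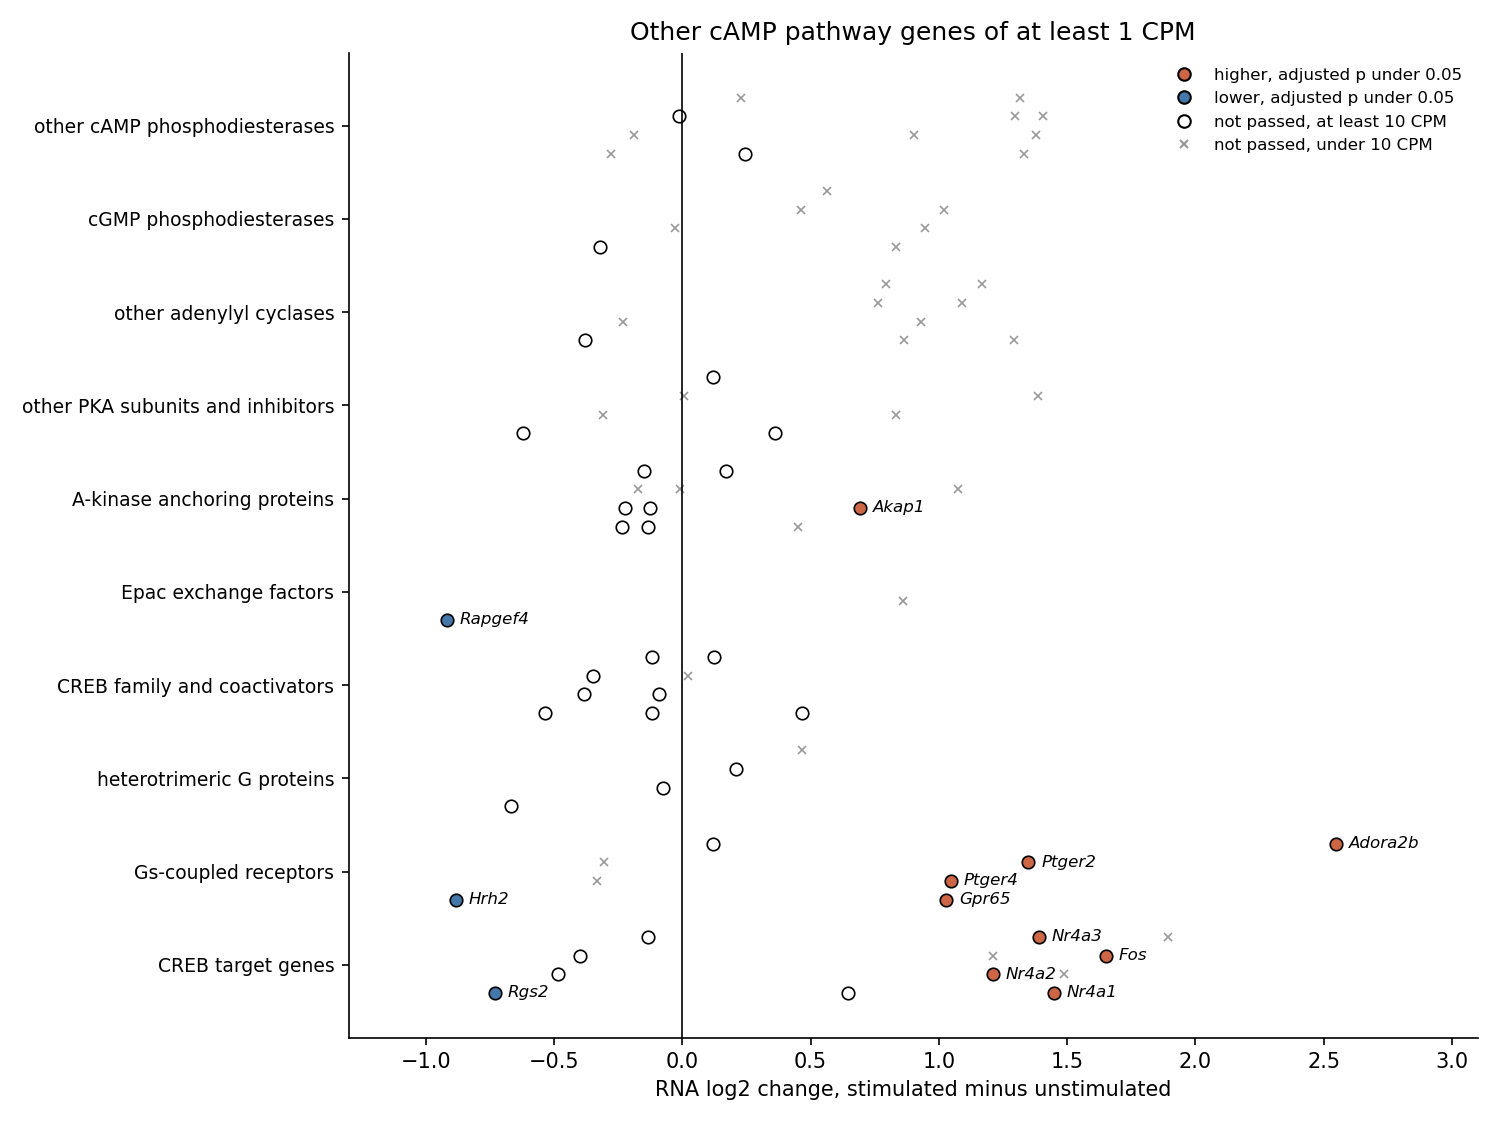
RNA log2 change, stimulated minus unstimulated, of 80 genes of the 10 pathway lists that reached 1 CPM, by list, with genes that passed and did not pass marked apart. All plotted genes that rose are Gs-coupled receptors or CREB target genes, apart from Akap1.

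Of 10 tested receptors that raise cyclic AMP through Gs, 5 rose, 1 fell and 4 did not pass, against 8.25% of all genes passing in either direction. Of the 7 receptors of at least 10 CPM, 5 rose and 1 fell, against 16.7% of all such genes passing. The median log2 change of the list was 1.04. Adora2b, the low-affinity adenosine receptor, rose from 2.18 ± 0.0939 to 12.8 ± 3.78 CPM (SD, n = 3 each), a log2 change of 2.55 ± 0.27 (SE; edgeR adjusted p = 2.5e-04). The prostaglandin E2 receptor gene Ptger2 rose from 25.7 ± 1.60 to 65.5 ± 16.0 CPM (SD, n = 3 each), with an edgeR adjusted p of 0.00181. Its relative Ptger4 rose from 89.5 ± 3.82 to 185 ± 43.3 CPM (SD, n = 3 each), with an edgeR adjusted p of 0.00856. The proton-sensing receptor gene Gpr65 rose with a log2 change of 1.03 (edgeR adjusted p = 0.00728). The gene that fell was Hrh2, a histamine receptor, from 19.9 ± 0.323 to 10.8 ± 1.19 CPM (SD, n = 3 each; edgeR adjusted p = 0.00266). Gpr65 and Hrh2 were named after their values were seen. Adora2b, Ptger2 and Hrh2 passed in all 17 alternatives. Ptger4 and Gpr65 lost their calls under RLE size factors, at adjusted p of 0.0549 and 0.0558, and without unstimulated replicate 3 (0.0750 and 0.0847), stimulated replicate 1 (0.0589 and 0.0785) or stimulated replicate 2 (0.136 and 0.130).

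Among genes known to be induced through CREB, Fos and 3 nuclear receptor genes rose. Of 13 tested in a list of 14, these 4 rose, 1 fell and 8 did not pass, with a median log2 change of 1.21. Over all genes tested 3.58% rose and 4.67% fell, and among those of at least 10 CPM 6.86% rose and 9.84% fell. The 9 list genes of at least 10 CPM had a median of 0.65. Among these 9, Per1, Sik1 and Dusp1, which did not pass, had log2 changes of -0.40, -0.49 and -0.13 (named after their values were seen). Fos rose from 73.8 ± 5.93 to 232 ± 56.4 CPM (SD, n = 3 each), a log2 change of 1.65 with an edgeR adjusted p of 9.3e-04. The nuclear receptor genes Nr4a1, Nr4a3 and Nr4a2, which are also direct products of antigen receptor signalling, rose with log2 changes of 1.45, 1.39 and 1.21 (edgeR adjusted p = 0.00369, 0.00248 and 0.00456). Nr4a2 lost its call without stimulated replicate 2, at an adjusted p of 0.0770. Rgs2, a regulator of G protein signalling named after its values were seen, fell with a log2 change of -0.73 (edgeR adjusted p = 0.0293). That call was lost without unstimulated replicates 1 or 3, or stimulated replicates 1 or 2, at adjusted p of 0.0673 to 0.149. These genes respond to other pathways too, and the list is no measure of CREB activity.

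In the lists for Epac, anchoring proteins and kinase subunits, 2 of 24 genes passed, or 8.33%, near the 8.25% of all genes. These lists held 1, 7 and 3 genes of at least 10 CPM, a level at which 16.7% of all genes passed. Of the 2 Epac genes, Rapgef4 fell from 15.8 ± 0.511 to 8.36 ± 0.224 CPM (SD, n = 3 each), a log2 change of -0.92 with an edgeR adjusted p of 0.00266 that held in all 17 alternatives. Of 14 A-kinase anchoring protein genes, which tether the kinase to membranes and organelles, 1 rose, Akap1, from 21.5 ± 0.372 to 34.7 ± 9.78 CPM (SD, n = 3 each; edgeR adjusted p = 0.0426). Akap1 lost its call in 8 of 17 alternatives, with an adjusted p of up to 0.298. By edgeR, 0 of the 8 other genes for kinase subunits and inhibitors passed, and 1 had an unadjusted p under 0.05. DESeq2 called 1 and limma voom 3, Prkacb in both, against 2960 and 3387 of all 18886 genes tested. Prkacb, the beta catalytic subunit, was at 270 ± 11.5 and 176 ± 34.4 CPM (SD, n = 3 each; edgeR adjusted p = 0.0788), and the regulatory subunit gene Prkar1a at 295 ± 13.7 and 320 ± 82.2 CPM (edgeR adjusted p = 0.690), a change whose sign flips with the scaling.

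By edgeR no gene passed among 11 other cyclic AMP phosphodiesterases, 8 cyclic GMP phosphodiesterases, 9 other adenylyl cyclases, 9 CREB family members and coactivators and 5 G protein genes. Of these 42 genes 0 passed, against 8.25% of all genes tested and 16.7% of those of at least 10 CPM. In the order above, the lists held 2, 1, 1, 8 and 3 genes of that level. An unadjusted edgeR p under 0.05 was found for 6 of the 42 genes. DESeq2 called 6 of the 42, Adcy3, Creb3, Crebbp, Ep300, Gnai2 and Pde10a, and limma voom 7, Ep300 and Gnai2 among them. Over all 18886 genes tested, DESeq2 called 2960 and limma voom 3387. Creb3 and Pde10a are named after their values were seen. The other phosphodiesterases were mostly at low levels. Pde1b was at 16.0 ± 0.369 and 15.8 ± 2.68 CPM and Pde8a at 11.5 ± 0.732 and 13.7 ± 1.85 CPM (SD, n = 3 each), with log2 changes of -0.01 and 0.25; the sign for Pde1b flips among genes of at least 10 CPM. These 2 were the only ones of the 11 at 10 CPM or more in either group. The median log2 change of all 11 was 0.90, and the background CPM was also higher in the stimulated group as a whole, a part that was not tested. Adcy3 was at 38.3 ± 2.10 and 29.5 ± 7.66 CPM, with overlapping groups (SD, n = 3 each; edgeR adjusted p = 0.270). The coactivator genes Crebbp and Ep300 and the inhibitory G protein gene Gnai2 had log2 changes of -0.35, -0.54 and -0.67 without overlap of groups (edgeR adjusted p = 0.293, 0.0853 and 0.0629). They passed in 7, 8 and 11 of 17 alternatives.

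Footprint libraries were too shallow to test any of the 9 genes. None of them passed the low-count filter, unlike 256 other genes, so neither footprints nor translational efficiency, the footprint change relative to the RNA change, was tested for them. In these fits 9.38% of 256 genes passed for footprints, 3.91% lower and 5.47% higher, and 3.14% of 255 for efficiency, 1.57% in each direction. Without the filter, 0 of the 9 passed edgeR's test in either. An unadjusted edgeR p under 0.05 was found for 1 gene in each, Pde4d for footprints (adjusted p = 0.763) and Creb1 for efficiency (adjusted p = 0.561). DESeq2 and limma voom used the same filter and so tested none of the 9 either. The 9 genes had 7, 26 and 12 footprints in unstimulated replicates 1 to 3 and 14 and 13 in stimulated replicates 2 and 3. Per library total these were 1099 CPM (802 to 1471) and 607 CPM (400 to 883), a ratio of 0.552 (0.329 to 0.909), beside 0.489 for their RNA. Intervals are exact at 95% and cover counting error only. They take each count as an independent molecule, which was not checked. Footprint replicates of a group differed by more than counting error, with a chi-square per degree of freedom of 1.84 to 2.33 over genes. Unstimulated replicate 2 weighs heavily in the footprint ratio, which was 0.842 (0.451 to 1.60) without that library. It was 0.672 (0.393 to 1.13) without Pde4d and 0.611 (0.310 to 1.13) without stimulated replicate 3.

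**Figure D5:**
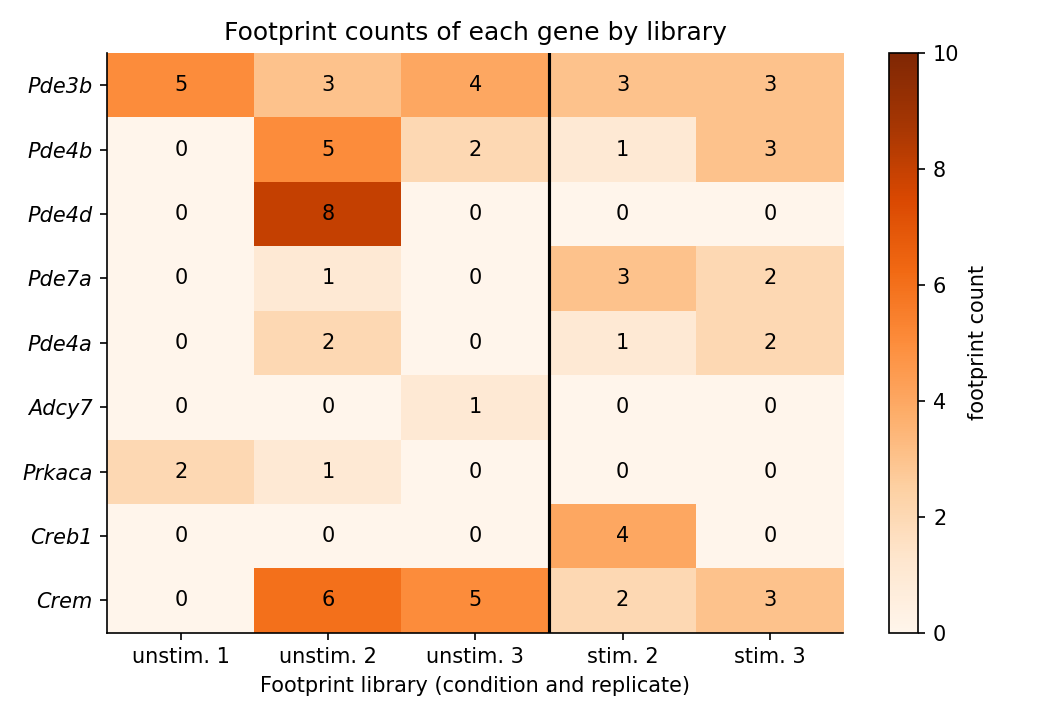
Footprint count of each of the 9 genes in the 3 unstimulated and 2 stimulated libraries. Most cells of the grid hold 0 to 5 footprints, and all 8 footprints of Pde4d lie in unstimulated replicate 2.

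Among single genes, Pde3b had the most footprints, 5, 3 and 4 in unstimulated and 3 and 3 in stimulated libraries, a ratio of 0.460 (0.142 to 1.32) per library total. Crem had 0, 6 and 5 against 2 and 3, a ratio of 0.418 (0.114 to 1.31), although its RNA was higher in each stimulated library. Pde4b had 0, 5 and 2 against 1 and 3, a ratio of 0.526 (0.113 to 2.07). All of these intervals include 1, so no difference was detectable at this depth.

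Pde4d had 0, 8 and 0 footprints in unstimulated and none in stimulated libraries, and the exact interval of the ratio reached up to 0.539. All of that signal sat in 1 library. Pde7a had 0, 1 and 0 footprints against 3 and 2, with a ratio of 4.60 (0.515 to 218). Creb1 had none in unstimulated libraries and 4 and 0 in stimulated ones, again from 1 library, and the interval of the ratio began at 0.608, so a difference was not detectable. Pde4a had 0, 2 and 0 against 1 and 2, Prkaca 2, 1 and 0 against none, and Adcy7 0, 0 and 1 against none. Where a library listed 0 footprints, up to 3 counts are still possible, equal to 269, 206 and 197 CPM in unstimulated replicates 1 to 3 and to 144 and 127 CPM in stimulated replicates 2 and 3.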

How the data were processed

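The members and gene lists were chosen with earlier results of these data known. STAR 2.5 and the build mm10 (GRCm38) are named in the submitters' processing notes. The deposited values were raw counts per gene over coding sequence, with no normalization. The counting tool, strand handling and read filters are not given in the sources used here. Genes whose coding sequences overlap on opposite strands may therefore share reads. Adcy7 and Brd7 overlap by 72 bases, and whether these hold coding sequence was not checked. Identifiers were matched to symbols for 21838 of 21957 genes, and 119 had none. RNA, footprints and translational efficiency (an interaction of assay and stimulation) were each fitted over all genes with edgeR 4.0.16 in R 4.3.3. The fits used TMM factors, filterByExpr (minimum count 10, total 15), quasi-likelihood F tests and an adjusted p of 0.05. Only the libraries of each comparison entered its fit. SE is the log2 change divided by the square root of F. Alternatives used DESeq2 1.42.0 and limma voom 3.58.1, other scalings and filters, and fits without each library; a background covariate and leaving out 3 libraries were added after seeing the data. The 9 genes are all described. From each list up to 4 genes that passed are named (largest change first, at least 1 CPM), or the 2 most abundant where none passed; 2 genes that this rule names are not reported here. The edgeR script was tested on simulated data. Coding lengths were not used here, so levels are not compared between genes.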

Additional observations from a re-analysis of the deposited data

How the results depend on the processing

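The count of the 9 genes that passed in RNA was 5. It was 8 with a filter at a mean of 50 counts, where 4932 of 12611 genes passed. It was also 8 among genes of at least 10 CPM, where 72.9% of 8734 genes passed. At an adjusted p of 0.01 it was 3, where 628 of 18886 genes passed. When a library was left out it was 3 to 7, in fits that passed from 584 of 19142 to 13024 of 19219 genes. The count over all genes was 1559 in RNA and became 2960 with DESeq2, 3387 with limma voom, 5226 with library totals, 4932 with the filter at a mean of 50 counts, 6367 among genes of at least 10 CPM, 7343 without the 3 libraries of high background, 3013 with a background covariate, 628 at an adjusted p of 0.01, and 584 to 13024 when a library was left out. The highest of these, 13024, came without unstimulated replicate 2, and 584 without stimulated replicate 2. For footprints the 24 genes became 11 without the filter, 15 with the filter at a mean of 50 counts, and 12 to 37 when a library was left out. For efficiency the 8 genes became 31 with DESeq2, 0 with limma voom, 5 with library totals, 4 without the filter, 3 among genes of at least 10 CPM, 0 at an adjusted p of 0.01, and 0 to 9 when a library was left out. The cause of these shifts was not tested. The sign of Prkar1a (0.12) turned to -0.11 with DESeq2 and with RLE size factors, -0.072 with library totals, -0.015 with TMM factors made without Gm10800, Gm10801, Gm20594 and Lars2, -0.042 without the filter, -0.00080 without the 3 libraries of high background, and ranged from -0.20 to 0.093 when a library was left out. Gnai3 (0.21) turned to -0.024 with DESeq2 and with RLE size factors and ranged from -0.13 to 0.20 when a library was left out. Pde1b (-0.01) turned to 0.053 with the filter at a mean of 50 counts, 0.093 among genes of at least 10 CPM and 0.10 with the background covariate, and Pde6d (-0.03) to 0.037 with the filter at a mean of 50 counts.

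The labels do not say whether equal replicate numbers pair the libraries, and correlations between libraries cannot settle it. Deviations from the group means correlated at -0.788 for replicate 1, 0.640 for replicate 2 and 0.726 for replicate 3. Unstimulated replicate 1 correlated best with stimulated replicate 3 (0.805), and unstimulated replicate 2 with stimulated replicate 1 (0.863). Positive values joined libraries alike in background and negative values joined unlike ones, and the part of background was not tested. With a replicate block, 2395 genes and 7 of the 9 passed in RNA, 26 genes for footprints and 10 for efficiency, and none of the 9 for either of these. Shares of the phosphodiesterases per coding kilobase were not run, because the reference tables used here give no coding lengths. Depth limits the footprints: 40944 counts in all unstimulated and 44489 in all stimulated libraries left 1 to 18 footprints for each of the 9 genes.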

Other observations

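Footprints of the other pathway genes were summed by list and set against library totals, with exact 95% intervals for counting error only. CREB target genes had 35, 51 and 32 footprints in unstimulated replicates 1 to 3 and 170 and 178 in stimulated replicates 2 and 3, a ratio of 2.71 (2.20 to 3.37). The nuclear receptor genes Nr4a1, Nr4a3 and Nr4a2 held most of these, and each rose in the footprint fit, with log2 changes of 1.46, 1.88 and 2.51 (edgeR adjusted p = 6.2e-06, 1.0e-04 and 0.0312). Nr4a1 had 15, 21 and 14 footprints against 83 and 75, and Nr4a3 had 6, 13 and 6 against 42 and 64. None of the 3 passed for efficiency, where Nr4a2 had the largest log2 change, 1.29 (edgeR adjusted p = 0.209).

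Gs-coupled receptors had 0, 5 and 2 footprints in unstimulated and 10 and 10 in stimulated libraries, a ratio of 2.63 (1.07 to 7.36). CREB family members and coactivators had 5, 18 and 13 against 10 and 12, a ratio of 0.562 (0.315 to 0.982). Unstimulated replicate 2, which weighed heavily for the 9 genes, held 18 of these 36 unstimulated footprints. The ratio without that library was not computed. For the kinase subunits other than Prkaca the ratio was 1.08 (0.670 to 1.74), for the anchoring proteins 0.971 (0.658 to 1.44) and for the G proteins 0.878 (0.558 to 1.38). Prkacb, the beta catalytic subunit, had 0, 3 and 3 footprints against none, and Prkar1a had 10, 5 and 12 against 15 and 24.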
